A study of Mus musculus with 25 samples.

Results

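The genes described here encode the collagens, the matrix glycoproteins fibronectin (Fn1), fibrillin-1 (Fbn1), fibulin-2 (Fbln2) and SPARC, the lysyl oxidase-like crosslinkers (Loxl), the matrix metalloproteases (Mmp) and their tissue inhibitors (Timp). They were chosen by symbol alone and are 48 of the 11594 genes with a detected probe. Of 45281 probes on the array, 138 probes for 76 such genes carried one of these symbols, and 61 probes for 48 genes were detected (detection p under 0.05) on at least 4 of 25 arrays. These 48 genes are 26 collagens, 4 glycoproteins, 3 crosslinkers, 12 metalloproteases and 3 inhibitors. Of the 48, 16 were detected on all 25 arrays, and 4 (Col4a4, Mmp24, Mmp27 and Mmp28) passed only because tumour arrays were counted. The other 28 genes had no probe that passed, among them Mmp3, Mmp8, Col5a2, Loxl3 and Timp4, and of the 77 probes that did not pass 50 were detected on no array. Lox itself was sought by the same rule, but no probe carried its symbol.

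Fibrillar collagens such as types I, III and V form the tensile fibres of connective tissue, while collagen IV forms the network of basement membranes together with laminin and nidogen. Lysyl oxidases crosslink the fibres, metalloproteases cut matrix proteins, and TIMP proteins inhibit the metalloproteases. In liver, stellate cells and portal fibroblasts are the main makers of fibrillar collagen, hepatocytes secrete plasma fibronectin, and deposition of this matrix is known as fibrosis.

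RNA was measured on Illumina bead arrays from livers of C57BL/6J x 129Sv mice injected with PIK3CA H1047R, with PIK3CA E545K (activating mutants of the phosphoinositide 3-kinase subunit p110 alpha) or with an empty vector. Tissue labelled normal liver came from empty-vector mice of 3 months (4 arrays) and 6 months (5 arrays), called 3-month and 6-month controls below. Tissue labelled preneoplasia came from H1047R mice of 3 months (4 arrays) and 6 months (1 array) and from E545K mice of 3 months (5 arrays), and tissue labelled tumour from E545K mice of 5 months (5 arrays) and from an H1047R mouse of 12 months (1 array). The sources used here do not say how the constructs were delivered, nor name the promoter or the cell type targeted. The labels give each array its own specimen code but do not say that the arrays are separate animals, so the p-values below describe only the spread seen among these arrays. No control of 5 months was used here, so the E545K tumours were set against both control ages and against E545K liver of 3 months. These 3 comparisons share the tumour arrays.

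Between 14536 and 18391 probes were detected per array, and levels are log2 normalized signals, whose lowest detected values were 4.59 to 4.93 depending on the array. Every tumour array detected more probes (16734 to 18391) than every control array (14536 to 16243). The lowest detected values were 4.59 to 4.69 on tumour arrays and 4.73 to 4.93 on control arrays. A dim signal between these limits therefore counts as detected only in a tumour. Summed hepatocyte markers lay between log2 16.17 and 16.86 on all arrays. Summed skeletal muscle markers lay between 8.67 and 15 in the 3-month controls, between 7.96 and 11 in the 6-month controls and between 7.90 and 8.02 in the E545K tumours. In livers of 3 months they lay between 7.99 and 14.13 with H1047R and between 7.87 and 8.26 with E545K. Their part in the results was not tested. Counts without the arrays richest in them, in part left out together with other arrays, are given beside the counts below. In bulk tissue, fewer cells of a type and less RNA per cell cannot be told apart.

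In the E545K tumours a small set of matrix genes was much higher than in any control group, and most others were not called (adjusted p under 0.05, limma, over all 20349 detected probes). Against the 3-month controls 22 of 61 probes were called (36.1%, where 39.8% of all detected probes were called), 14 of them higher (19.2% of all detected probes) and 8 lower (20.6%). Against the 6-month controls 17 of 61 were called (27.9%, against 16% of all detected probes), 15 higher (8.42% of all) and 2 lower (7.57%), and a fit of all 25 arrays called 28. Against E545K liver of 3 months 27 of 61 were called (44.3%, against 38.9%), 22 higher (18.3% of all) and 5 lower (20.6%). Among the 22 were the dimmer Col4a5 and Mmp24 probes, detected on tumour arrays alone, and the Mmp28 probe, detected on 2 other arrays. These entered the test only through tumour arrays, so their calls are not independent of the filter. With the brightest probe standing for each gene, 10 genes were higher and 6 lower against the 3-month controls, 12 and 2 against the 6-month controls, and 15 and 4 against E545K liver of 3 months. The median log2 difference of the 48 genes was 0.16, 0.23 and 0.37 in the 3 comparisons, where that of all detected probes was -0.03, -0.03 and -0.05. Without tumour 5 and the 3-month control richest in muscle RNA together, 16 probes were called against the 3-month controls. Without 6-month controls 1 and 4 together, 16 were called against the 6-month controls. Tumour 5 and 6-month control 1 were low in summed muscle markers (7.90 and 8.12), so these counts do not isolate the muscle-rich arrays. Both settings were chosen after the data were seen. For these settings and for the fit of all 25 arrays, the share of all detected probes called is not given here. Their counts are therefore not to be read as results about the matrix genes alone.

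In all, 8 genes were higher in all 3 comparisons, namely Timp1, Fn1, Sparc, Col4a1, Col4a2, Mmp12, Mmp13 and Mmp14 (16.7%, where 8.77% of the 11594 genes were). Col5a3 and Col27a1 were lower in all 3 (4.17%, where 7.01% were). A further 8 genes were higher in 1 or 2 of the comparisons (16.7%, where 14.8% of all genes were), among them Mmp28, which passed only through tumour arrays. Another 4 were lower in 1 or 2 (8.33%, where 18.3% were), and 26 were called in none (54.2%, where 51.2% of all genes were).

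**Figure D1:**
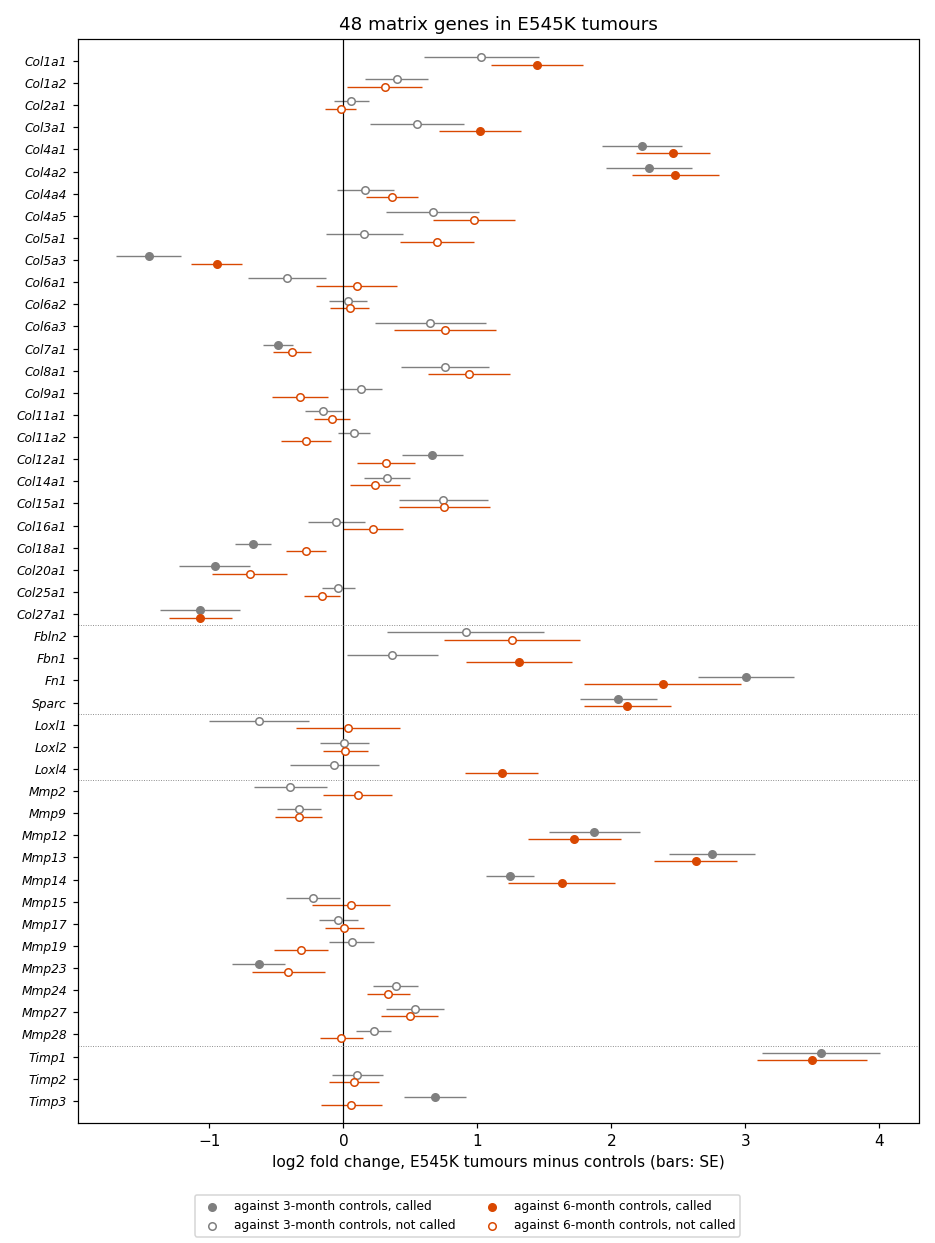
Log2 fold change of each of the 48 matrix genes (rows, by family) in the 5 E545K tumours against the 4 controls of 3 months (grey) and the 5 of 6 months (orange), with bars for the standard error and filled points for genes called at an adjusted p under 0.05. Most points lie near 0, while Timp1, Fn1, Sparc, Col4a1, Col4a2, Mmp12, Mmp13 and Mmp14 lie to the right in both colours and Col5a3 and Col27a1 to the left.

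Col4a1 and Col4a2, whose products assemble into the main collagen IV molecule of basement membranes, rose together. Col4a1 was at log2 10.46, 10.59, 11.19, 11.48 and 11.86 in tumours 1 to 5, at 8.88, 9.35, 8.37 and 8.96 in the 3-month controls and at 8.64, 8.75, 8.92, 8.87 and 8.08 in the 6-month controls. Every tumour was above every control. The difference from the 6-month controls was 2.46 (SE 0.28, adjusted p = 0.000168, 5 against 5 arrays). Col4a2 was at 8.78, 8.35, 9.44, 9.06 and 10.26 in the tumours, at 6.93, 6.92, 7.14 and 6.61 in the 3-month controls and at 6.15, 6.90, 6.70, 6.57 and 7.19 in the 6-month controls. Here too the groups did not overlap, and the difference from the 6-month controls was 2.48 (SE 0.33, adjusted p = 0.000493). Tumour 5 was the highest for both genes. E545K livers of 3 months lay between 8.40 and 8.98 for Col4a1 and between 5.92 and 7.33 for Col4a2, also below all tumours. Of the other chains of this type, Col4a5 was higher only against E545K liver of 3 months (1.18, SE 0.29, adjusted p = 0.00898), at 0.97 with an adjusted p of 0.0509 against the 6-month controls, and Col4a4, detected in 3 of 5 tumours and in 1 other array, was called in none.

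Col4a1 and Col4a2 are neighbours that are read in opposite directions from a common start region, which the promoter windows of RefSeq (GRCm38.p6, 250 bases before to 50 after the gene start, 5′ to 3′ on the gene's own strand) show. The Col4a1 window is chr8:11312777-11313076 on the minus strand and the Col4a2 window chr8:11312555-11312854 on the plus strand. Capitals mark the 78 bases that both windows hold, once on each strand, chr8:11312777-11312854.
Col4a1: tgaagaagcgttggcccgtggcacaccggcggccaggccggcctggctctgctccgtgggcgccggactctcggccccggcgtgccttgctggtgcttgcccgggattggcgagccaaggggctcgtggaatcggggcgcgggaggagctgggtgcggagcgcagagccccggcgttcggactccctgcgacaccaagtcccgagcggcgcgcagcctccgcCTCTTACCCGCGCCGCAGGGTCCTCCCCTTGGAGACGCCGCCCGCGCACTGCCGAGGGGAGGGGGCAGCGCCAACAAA
Col4a2: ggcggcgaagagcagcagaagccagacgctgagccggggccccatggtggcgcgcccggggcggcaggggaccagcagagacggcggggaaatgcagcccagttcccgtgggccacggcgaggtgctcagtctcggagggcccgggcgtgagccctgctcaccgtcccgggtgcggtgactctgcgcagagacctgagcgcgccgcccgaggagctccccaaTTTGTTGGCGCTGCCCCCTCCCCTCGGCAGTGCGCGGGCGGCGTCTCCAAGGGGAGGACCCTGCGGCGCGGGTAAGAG
Both windows hold a GC box (GGGCGG, searched on both strands) and a CCAAT box. Over 32851 mouse windows of this length 35.7% hold the first and 37.4% the second, and of the 42 windows found for 37 of the 48 matrix genes 64.3% and 35.7% do. A match of letters is a description of the sequence and not a binding site.

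The 22 collagens outside type IV went both ways. Against the 3-month controls 1 was higher (Col12a1) and 5 were lower, against the 6-month controls 2 and 2, and against E545K liver of 3 months 2 and 4. In the same order, 19.2% of all detected probes were higher and 20.6% lower, 8.42% and 7.57%, and 18.3% and 20.6%. Col5a3, a minor chain of type V collagen, was at 4.78, 4.71, 4.50, 4.66 and 4.75 in the tumours, at 5.45, 6.57, 5.79 and 6.73 in the 3-month controls and at 6.26, 5.59, 5.48, 5.13 and 5.67 in the 6-month controls. All tumours lay below all controls, close to the level of undetected probes. The gene fell by 1.45 (SE 0.24, adjusted p = 0.00113) against the 3-month and by 0.95 (SE 0.19, adjusted p = 0.00703) against the 6-month controls. Col27a1, a fibrillar collagen of cartilage, was at 4.63, 4.34, 4.49, 4.84 and 4.35 in the tumours, at 4.52, 5.75, 5.84 and 6.29 in the 3-month controls and at 6.44, 5.29, 5.20, 5.29 and 5.77 in the 6-month controls. It fell by 1.07 against both (SE 0.30 and 0.24, adjusted p = 0.0154 and 0.0112), with 3-month control 1 among the tumours.

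Col18a1, the source of the fragment endostatin, was the brightest of the matrix genes in the controls. Its levels were 12.88, 12.38, 12.48, 12.60 and 12.61 in the tumours, 13.35, 13.17, 13.31 and 13.26 in the 3-month controls and 13.13, 12.94, 12.66, 12.95 and 12.68 in the 6-month controls. The tumours lay below the 3-month controls without overlap and overlapped the 6-month controls. The gene fell by 0.68 (SE 0.13, adjusted p = 0.00277) against the former, and the difference from the latter was -0.28 (adjusted p = 0.231). A second, dimmer Col18a1 probe was not called against the 3-month controls (-0.36, adjusted p = 0.0722). Col7a1, which makes anchoring fibrils, and Col20a1 were lower against the 3-month controls (-0.49, adjusted p = 0.00555, and -0.96, adjusted p = 0.0148) and not called against the 6-month controls.

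Fibrillar collagens I and III were dim in liver, and Col1a2 was called in none of the 3 comparisons. Col1a1, the main chain of type I collagen, was at 5.79, 5.07, 5.06, 6.54 and 6.98 in the tumours, at 4.40, 5.76, 4.83 and 4.44 in the 3-month controls and at 4.42, 4.70, 4.32, 4.45 and 4.35 in the 6-month controls. It was detected on no 6-month control and was at least 2.10-fold higher than there (log2 difference 1.44, SE 0.34, adjusted p = 0.0159), and the tumours overlapped the 3-month controls (1.03, adjusted p = 0.0760). Col3a1 was at 6.06, 4.94, 5.85, 6.23 and 6.49 in the tumours, 4.65, 6.23, 5.14 and 5.43 in the 3-month and 4.74, 5.11, 4.55, 5.65 and 4.43 in the 6-month controls. The groups overlapped. Its difference was called against the 6-month controls (1.02, SE 0.31, adjusted p = 0.0444) and not against the 3-month controls (0.55), and the call was lost in 10 of 16 alternative settings. Col6a1, Col6a3, Col5a1, Col15a1 and Col8a1 were called in none of the 3 comparisons, with differences from the 6-month controls of 0.10 to 0.94, while a dimmer Col6a1 probe was lower against the 3-month controls (-0.94, adjusted p = 0.0478).

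Among the glycoproteins, Fn1, which links cells to collagen and which hepatocytes also secrete into plasma, showed the second largest rise against the 3-month controls. Its levels were 9.80, 10.89, 11.76, 11.44 and 11.39 in the tumours, 8.43, 7.63, 8.42 and 7.71 in the 3-month controls and 6.69, 9.24, 10.21, 8.10 and 9.12 in the 6-month controls. The tumours were apart from the 3-month controls, and 6-month control 3 was above tumour 1. Fn1 rose by 3.01 (SE 0.36, adjusted p = 0.000175) and by 2.38 (SE 0.59, adjusted p = 0.0183), and without tumour 3 the latter became 2.21 with an adjusted p of 0.0504. Sparc, a collagen-binding protein, was at 9.37, 9.21, 10.27, 10.05 and 10.72 in the tumours, 7.74, 8.19, 7.88 and 7.69 in the 3-month and 6.90, 7.86, 7.97, 8.12 and 8.17 in the 6-month controls. All tumours were above all controls. The difference from the 6-month controls was 2.12 (SE 0.32, adjusted p = 0.00136). A second probe was called as well and the dimmest probe was not (0.55 and 1.03, adjusted p = 0.139 and 0.0630).

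Fbn1, the backbone of microfibrils, was higher than in the 6-month controls (1.31, SE 0.40, adjusted p = 0.0442) and not called against the 3-month controls (0.37), and lost its call in 10 of 16 alternative settings. Fbln2, which binds fibronectin and fibrillin, was at 5.39, 5.49, 5.66, 5.77 and 8.41 in the tumours, with tumour 5 far above the others. It was called in no comparison (0.91 and 1.26 against the controls).

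Of the crosslinkers, Loxl4 was at 6.43, 5.34, 6.65, 6.96 and 6.18 in the tumours, 5.76, 6.76, 6.11 and 6.89 in the 3-month controls and 5.48, 5.38, 4.92, 4.95 and 4.91 in the 6-month controls. The tumours were like the 3-month controls (-0.07) and rose by 1.18 (SE 0.27, adjusted p = 0.0141) against the 6-month controls, while its other probe was not called there (0.56, adjusted p = 0.0813). Loxl1, which acts on elastic fibres, and Loxl2 differed from the 6-month controls by 0.03 and 0.01 and were called in none of the 3.

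Among the metalloproteases, 3 of 12 rose against each control group, where 19.2% and 8.42% of all detected probes rose against the 3-month and 6-month controls. Mmp13, a collagenase, was at 6.84, 7.87, 6.91, 6.95 and 8.43 in the tumours, at 4.99, 4.70, 4.56 and 4.34 in the 3-month controls and at 4.99, 5.14, 4.35, 4.70 and 4.66 in the 6-month controls. Every tumour was well above every control, in most of which the probe was not detected. The gene rose by 2.75 (SE 0.32, adjusted p = 0.000146) and by 2.63 (SE 0.31, adjusted p = 0.000235). A second Mmp13 probe was detected in no tumour and was not called (-0.17 and -0.19, adjusted p = 0.433 and 0.425), so the rise rests on 1 probe. Mmp12, the elastase of macrophages, was at 6.75, 6.71, 5.82, 5.07 and 6.92 in the tumours, 4.48, 4.28, 4.44 and 4.33 in the 3-month and 4.47, 4.34, 4.43, 5.18 and 4.24 in the 6-month controls. Only 6-month control 4 reached the lowest tumour. Mmp12 was at least 2.82-fold higher than in the 3-month controls, on none of which it was detected (log2 difference 1.87, SE 0.34, adjusted p = 0.0017), and rose by 1.72 against the 6-month controls (SE 0.34, adjusted p = 0.0064).

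Mmp14, a membrane-anchored collagenase that also activates other metalloproteases, was bright in every group. Its levels were 10, 9.98, 10.09, 10.55 and 10.53 in the tumours, 9.01, 9.17, 8.64 and 9.11 in the 3-month controls and 10.33, 8.54, 7.88, 8.15 and 8.12 in the 6-month controls. All tumours lay above the 3-month controls, whereas 6-month control 1 lay among the tumours. Mmp14 rose by 1.25 (SE 0.18, adjusted p = 0.00047) and by 1.63 (SE 0.40, adjusted p = 0.0184), and by 2.06 (adjusted p = 8.45e-05) without 6-month control 1. The gelatinases Mmp2 and Mmp9 and the membrane-anchored Mmp15 were not called, with differences of -0.40 to 0.11, and Mmp23 was lower against the 3-month controls (-0.63, adjusted p = 0.0256), a call lost in 7 of 16 alternative settings. Mmp24 was not called by its brightest probe. Its other probe is among the 14 called higher against the 3-month controls, but was detected on tumour arrays alone and so entered the test only through them.

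The promoter window of Mmp13 (RefSeq, GRCm38.p6, chr9:7272264-7272563, plus strand, 5′ to 3′) is shown because this gene went from undetected in most controls to detected in every tumour, and its known AP-1 and TATA elements lie within it. Capitals mark the AP-1 motif (TGANTCA), which starts 35 bases before the gene start, and the TATA box (TATAAA), 16 bases before it.
Mmp13: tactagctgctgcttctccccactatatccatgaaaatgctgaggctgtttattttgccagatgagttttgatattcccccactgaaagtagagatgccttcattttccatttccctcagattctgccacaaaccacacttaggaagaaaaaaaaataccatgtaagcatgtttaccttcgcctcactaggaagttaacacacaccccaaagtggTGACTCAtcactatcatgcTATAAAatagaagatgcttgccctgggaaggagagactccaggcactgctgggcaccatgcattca
The AP-1 motif is in 7.81% of all 32851 windows and in 7.14% (3 of 42) of the matrix gene windows, and TATAAA in 13.6% and 9.52%.

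The inhibitor Timp1, which blocks most secreted metalloproteases, showed the largest rise of the 48 genes. It was at 7.76, 7.14, 8.24, 7.46 and 9.82 in the tumours, at 4.69, 4.50, 4.61 and 4.27 in the 3-month controls and at 4.78, 4.51, 4.52, 4.44 and 4.69 in the 6-month controls. All 5 tumours detected this probe and no control did, while the second Timp1 probe was detected on 1 of the 6-month controls. By the first probe it was at least 9.60-fold higher than in the 6-month controls (log2 difference 3.49, SE 0.41, adjusted p = 0.000232), and the second was called too (3.34). Timp3, which is held in the matrix, was higher than in the 3-month controls (0.68, SE 0.23, adjusted p = 0.0359), a call lost in 8 of 16 alternative settings, and not than in the 6-month controls (0.06). Timp2 was called in none, at 0.10 and 0.08.

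The size of the changes in dim genes depends on background correction. Without it, the differences from the 3-month controls became 1.82 for Timp1, 1.27 for Mmp13, 0.71 for Mmp12, -0.53 for Col5a3 and -0.37 for Col27a1, all still called, and those of the bright genes Col4a1 (2.04), Fn1 (2.66) and Mmp14 (1.12) kept more of their size.

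**Figure D2:**
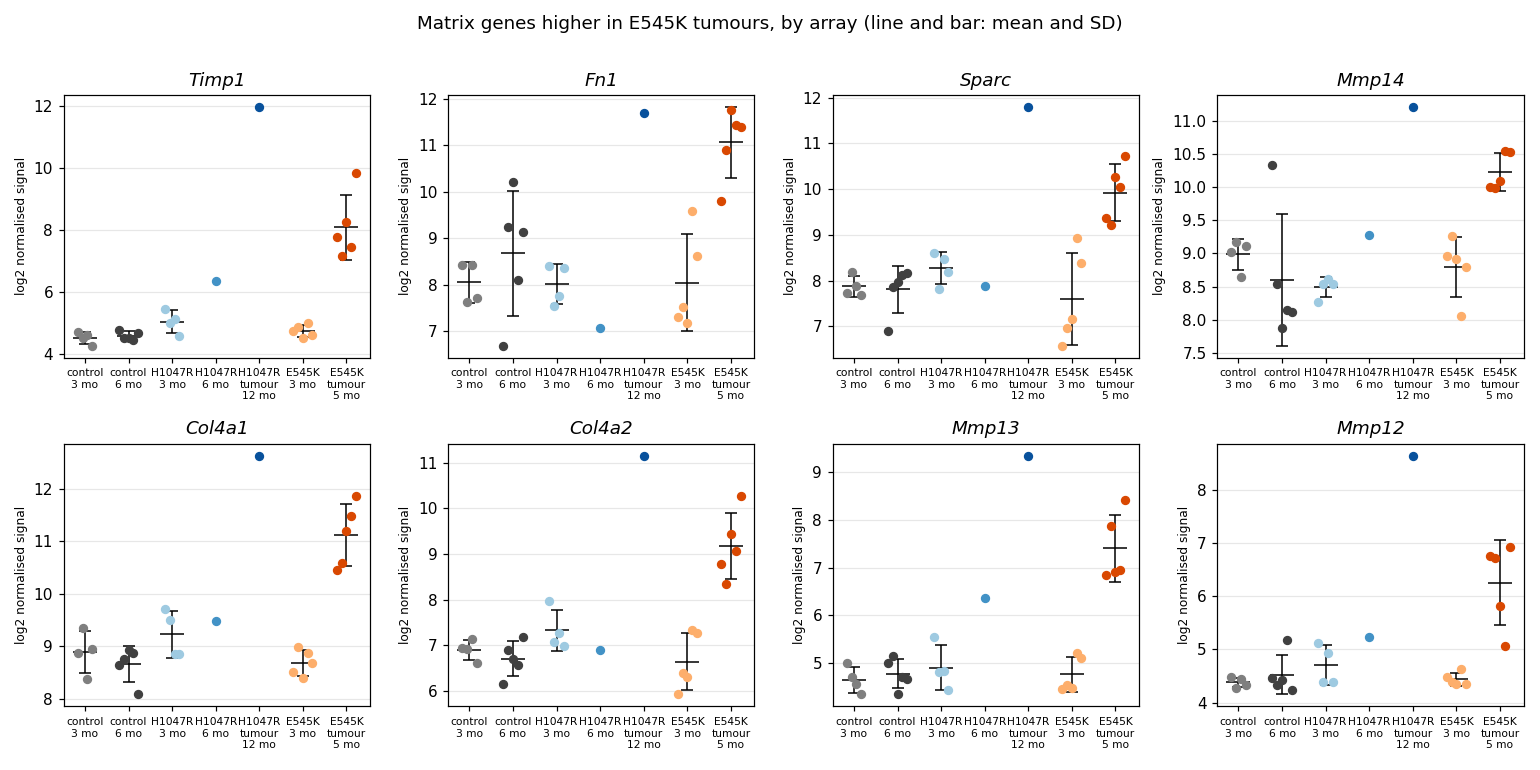
Log2 normalized signal of the 8 matrix genes higher in all 3 tumour comparisons, per array (points) and group, with the mean and SD of groups of several arrays. The E545K tumours stand above the livers of 3 months, except for 1 H1047R liver that reaches the lowest tumour for Mmp12, single 6-month controls reach them for Fn1, Mmp12 and Mmp14, and the 12-month H1047R tumour is above them in all panels but that of Fn1.

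Markers of other cells differed between the tumours and the controls too. Among all detected probes 19.2% were called higher and 20.6% lower against the 3-month controls, and 8.42% and 7.57% against the 6-month controls. Summed macrophage markers lay between 11.51 and 13.24 in the E545K tumours, between 10.78 and 11.68 in the 3-month and between 10.34 and 11.87 in the 6-month controls, with 5 of 11 markers called higher against each control group, among them Cd14 (4.03 and 4.39). Summed biliary markers lay between 10.67 and 13.50 in the tumours and between 9.43 and 10.60 in the controls, with Sox9 and Spp1 higher against each control group and a median difference of -0.01 and 0.11 over the 6 markers, while the defining marker Epcam was detected on no array and Krt19 on 3. Stellate cell and fibroblast markers did not rise as a list. Their sum lay between 12.14 and 13.34 in the tumours, between 12.91 and 13.43 in the 3-month and between 12.19 and 13.37 in the 6-month controls, and of 11 markers 1 was higher and 4 lower against the 3-month controls (Lrat, a retinol-storage enzyme of quiescent stellate cells, at -1.42) and 1 was higher against the 6-month controls (Acta2, smooth muscle actin, at 1.86). Summed endothelial markers were 13.02 in tumour 1 and 11.15 to 11.97 in the other tumours, below all controls (12.25 to 12.87), with 1 of 10 lower against the 3-month controls and 0 called against the 6-month controls, where 3 had an unadjusted p under 0.05 (limma). Summed acute phase genes, which hepatocytes make in inflammation, lay between 16.68 and 16.84 in the tumours and reached 16.53 at most in the controls, with 5 and 3 of 10 higher. By the mean log2 level of these genes the tumours (10.84 to 11.22) lay within the range of the 3-month controls (9.41 to 11.46). Summed adipose markers lay between 6.00 and 6.25 in the tumours and at 7.03 or more in the controls, with 2 and 1 of 3 lower. Of 4 neutrophil markers 2 were higher against the 3-month controls and 0 were called against the 6-month controls, where 0 had an unadjusted p under 0.05 (limma). The part of these cells in the results was not tested, and without the 3-month controls of high acute phase levels 17 matrix probes were called against that group. The share of all detected probes called in that fit is not given here.

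The tumours differed among themselves. Tumour 5 held the highest level in 24 of the 48 genes (50%, where it was the highest in 14.5% of all detected probes), and tumour 2 the lowest in 26 (where it was the lowest in 17.7%). The mean level over the 48 genes was 6.30, 6.02, 6.32, 6.40 and 6.74 in tumours 1 to 5. In the same tumours summed biliary markers were 10.67, 11.65, 12.85, 13.31 and 13.50, summed macrophage markers 13.24, 12.42, 11.76, 11.53 and 11.51 and summed stellate cell markers 13.34, 12.67, 13.03, 12.14 and 12.81. Tumour 5 thus had the highest biliary and the lowest macrophage sum. By the mean log2 level of the same markers, tumour 4 was the highest for biliary markers (7.27, tumour 5 at 7.21). It was also the lowest for macrophage markers (7.21, tumour 5 at 7.27). Their part in these differences was not tested.

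The partners of these genes in the matrix pathway, taken from 5 lists, also held a few large changes among many genes not called. Among all detected probes 19.2% were higher and 20.6% lower against the 3-month controls, and 8.42% and 7.57% against the 6-month controls. The counts of the 5 lists are to be read beside these shares, and no list was tested as a set. Of 15 laminins and basement membrane partners 3 were higher and 2 lower against the 3-month controls, and 2 and 1 against the 6-month controls. Nid1, the nidogen that joins laminin to collagen IV, rose by 4.49 (SE 0.39, adjusted p = 2.22e-05) and by 4.73 (adjusted p = 1.55e-05). Lama5 was at least 3.03-fold higher than in the 3-month controls (adjusted p = 8.66e-05), and Lama3, detected in no tumour, was at least 2.33-fold lower (adjusted p = 0.000843). Of 22 collagen processing enzymes 5 were higher and 3 lower, and 3 and 2. Crtap, which takes part in prolyl 3-hydroxylation, rose by 1.54 (adjusted p = 0.000122) and by 1.11, and the prolyl 4-hydroxylase subunit P4ha2 fell by 1.10 (adjusted p = 0.00552) and by 1.46.

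Of 21 integrins and matrix receptors 9 were higher and 1 lower against the 3-month controls, and 7 and 0 against the 6-month controls. The collagen receptor Ddr1 rose by 2.26 (adjusted p = 4.44e-05) and by 2.35 (adjusted p = 4.37e-05), and the integrin chain Itga3 by 2.06 (adjusted p = 0.000191) and by 2.54. Of 27 proteoglycans and other matrix glycoproteins 6 were higher and 6 lower, and 4 and 2. Prelp, a leucine-rich repeat proteoglycan, rose by 1.11 and by 1.36, and Ltbp4, which binds latent TGF-beta, fell by 1.24 and by 0.85. Of 20 other matrix proteases and inhibitors 4 were higher and 3 lower, and 3 and 3. Serpine2, an inhibitor of thrombin and plasminogen activators, fell by 2.69 (adjusted p = 0.000144) and by 3.00 (adjusted p = 0.000305), and Plat, tissue plasminogen activator, was at least 2.32-fold higher than in the 3-month controls, which did not detect it.

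The authors' deposited table for the E545K tumours is labelled as a comparison with 3-month controls, but its log2 differences follow the tumours minus the 6-month controls (correlation across probes 0.9998, against 0.886 with the 3-month controls). In it 25 of the 61 matrix probes were called, 22 higher and 3 lower. Over all probes it called 4343, where 45281 were on the array. The authors' deposited tables of the other comparisons called no probe at all, matrix or other.

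In preneoplastic liver of 3 months none of the matrix genes was called. For H1047R against the 3-month controls limma called 0 of 61 probes (0% of all detected probes), with 9 at an unadjusted p under 0.05 (6.92% of all were). Without H1047R liver 2, the richest of them in muscle markers (14.13), 0 were called here and between the mutants. Timp2 was at 7.87, 7.89, 8.04 and 7.77 in the H1047R livers and at 7.43, 7.68, 7.09 and 7.35 in the controls. The groups did not overlap, but the difference of 0.50 (95% interval 0.17 to 0.84) had an adjusted p of 0.610. Mmp14 was at 8.27, 8.54, 8.61 and 8.53, below all 3-month controls, with a difference of -0.50 (-0.84 to -0.15). For Timp1 the difference was 0.52 (0.09 to 0.95) and for Col4a1 0.34 (-0.22 to 0.90), and both intervals end below the differences seen in the tumours.

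For E545K at 3 months limma also called 0 of 61 probes (0.00983% of all detected probes), with 4 at an unadjusted p under 0.05 (4.31% of all were). The smallest p belonged to Loxl4, at 5.66, 6.16, 5.49, 4.93 and 4.89 against 5.76, 6.76, 6.11 and 6.89 in the controls (-0.95, 95% interval -1.63 to -0.27, adjusted p = 1). The groups overlapped. Intervals were 0.23 (-0.09 to 0.56) for Timp1, -0.20 (-0.65 to 0.24) for Col4a1 and -0.01 (-1.04 to 1.02) for Fn1.

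The 2 mutants at 3 months were also compared directly. None of the 61 probes was called (0% of all detected probes), with 9 at an unadjusted p under 0.05 in limma (5.58% of all were). Fbln2 was at 5.12, 5.18, 5.04, 5.49 and 5.66 with E545K and at 5.99, 6.05, 5.90 and 6.20 with H1047R, without overlap (-0.74, 95% interval -1.08 to -0.40, adjusted p = 0.766). Loxl1 was at 6.62, 7.14, 6.19, 6.53 and 6.50 with E545K and at 7.30, 7.33, 7.54 and 7.16 with H1047R, again without overlap (-0.73, -1.14 to -0.33). Neither passed the test.

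Age alone, in the empty-vector mice, gave 0 called matrix probes (0% of all detected probes) and 2 at an unadjusted p under 0.05 in limma (10.4% of all were). The largest difference by p was Loxl4, lower at 6 months in every array (-1.25, 95% interval -1.81 to -0.69, adjusted p = 0.402).

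The H1047R tumour of 12 months was a single array, so its differences have no replicate check and no test. It was at least 2-fold above the mean of the 6-month controls, and above the highest of them, in 25 of 48 genes (32 of 61 probes, 52.5%, where 9.2% of all detected probes were) and as far below in 0 genes (7.15% of all detected probes). The median difference over the 48 genes was 1.31, where that of all detected probes was -0.06. Among them were 13 of 26 collagens. Timp1 was at 11.96 and, by the probe that no 6-month control detected, at least 141-fold above them, Col1a1 at 9.32 and at least 22.7-fold above, and Fbln2 at 10.46 and 47.5-fold above. Mmp13, Col4a2, Mmp12, Fbn1, Col6a3, Sparc and Col4a1 followed, with log2 differences of 3.97 to 4.58.

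Compared with the 5 E545K tumours, the 12-month tumour was at least 2-fold above their mean and above the highest in 23 of 48 genes (29 of 61 probes, 47.5%, where 3.34% of all detected probes were) and as far below in 0 (2.2%). Of these 23 genes 12 were collagens, 3 glycoproteins, 1 a crosslinker, 4 metalloproteases and all 3 detected inhibitors. The genes of largest difference were Fbln2 (4.31), Timp1 (3.88), Col1a1 (3.43), Loxl1 (3.42), Col6a3 (3.25), Col6a1 (2.89), Col15a1 (2.76) and Fbn1 (2.71). Loxl1 was at 9.66 in the 12-month tumour, at 6.04, 5.04, 6.27, 6.88 and 6.92 in the E545K tumours and at 6.80, 6.56, 5.78, 6.56 and 5.30 in the 6-month controls. Col6a1, a chain of the beaded-filament collagen VI, was at 9.56 in the 12-month tumour, at 6.96, 6.00, 6.46, 6.64 and 7.30 in the E545K tumours and at 7.09, 6.43, 5.67, 7.01 and 6.66 in the 6-month controls. For both genes the ranges of the E545K tumours and the controls overlapped, and the 12-month tumour lay far above both. Fn1, at 11.69, was within the range of the E545K tumours, and Loxl4 (-0.98), Mmp15 (-0.70) and Col18a1 (-0.34) were below it. The 2 tumour types differ in mutation and in age, which cannot be told apart from each other or from the single array.

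**Figure D3:**
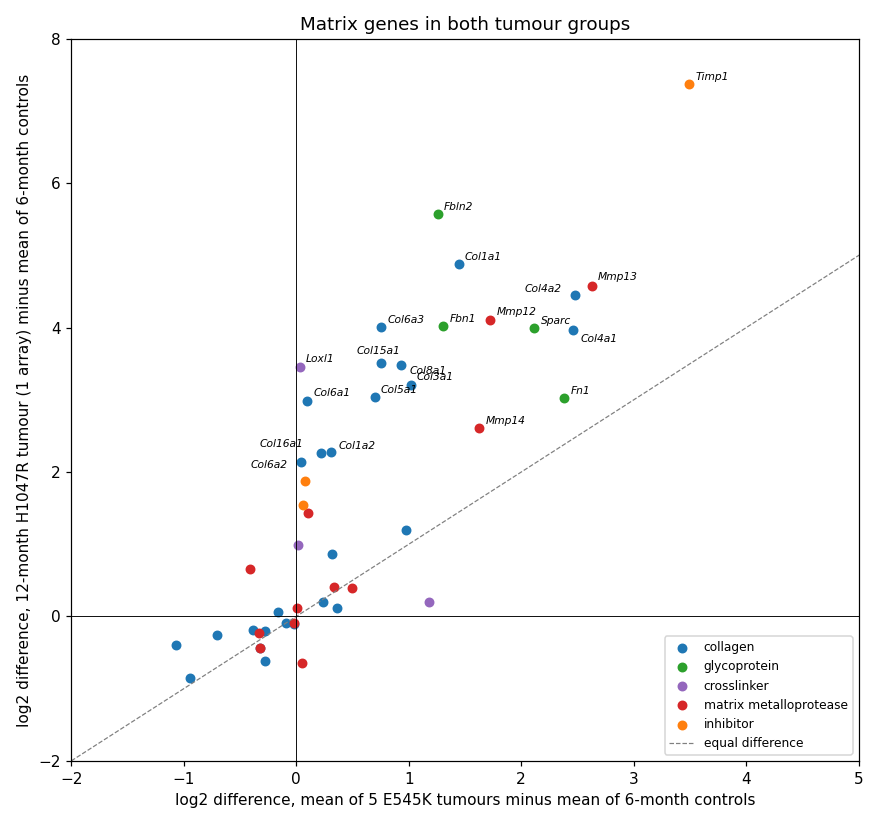
Log2 difference from the mean of the 5 controls of 6 months for each of the 48 matrix genes, in the E545K tumours (x axis, mean of 5) and in the 12-month H1047R tumour (y axis, 1 array), coloured by family, with a dashed line of equal difference. Both axes share the control arrays. Fbln2, Col1a1, Col6a3, Loxl1 and Col6a1 lie far above the line, Fn1 close to it and Loxl4 below it.

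In the same array the partners of the matrix pathway were above the E545K tumours by the same rule in 7 of 22 collagen processing enzymes, 5 of 15 laminins and basement membrane partners, 12 of 27 proteoglycans and glycoproteins, 7 of 20 other proteases and inhibitors and 7 of 21 integrins and receptors, and as far below in 0. Among all detected probes 3.34% were above and 2.2% below by this rule. The collagen chaperone Serpinh1 was at 11.12, where the E545K tumours averaged 8.78, and the hyaluronan receptor Cd44 at 11.10, where they averaged 8.04. Of the stellate cell and fibroblast markers, Acta2 was at 10.24, Lum at 7.29, Pdgfrb at 6.25 and Cygb at 9.79, all above every 6-month control, and Lrat at 5.44 was below every 6-month control. The summed list, at 12.84, was within the range of the 6-month controls. By the mean log2 level of the same markers the 12-month tumour, at 7.53, was above every 6-month control (6.81 to 7.46). Summed biliary markers were 14.17, above every other array. Summed macrophage markers were 11.94, with 5 of 11 at least 2-fold above and 4 as far below the 6-month controls (9.2% and 7.15% of all detected probes). Summed endothelial markers, at 11.71, were below every 6-month control (2 of 10 markers above, 3 below), and summed acute phase genes, at 17.10, were above every other array (5 of 10 above). Their part in the result was not tested.

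The H1047R liver of 6 months, also a single array, was at least 2-fold above the 6-month controls in 7 of 48 genes (9 of 61 probes, 14.8%, where 3.83% of all detected probes were) and as far below in 0 genes (1 probe, where 4.87% were). These were Timp1 (6.36, at least 2.90-fold by that probe), Mmp13 (6.36, log2 difference 1.59), Loxl1 (7.77, 1.57), Col5a1 (7.68, 1.47), Fbn1 (7.16, 1.39), Fbln2 (6.27, 1.39) and Col1a1 (5.45, at least 1.54-fold). No 6-month control detected Col1a1, so its place in this count rests on control signals below detection. The rule also asks for a level above every 6-month control, so all 7 lay there by selection. In this array summed stellate cell and fibroblast markers (13.67) were the highest and summed hepatocyte markers (16.17) the lowest of the 25 arrays. Of 11 stellate cell markers 4 were at least 2-fold above the 6-month controls, and 4 of 9 hepatocyte markers were as far below. By the mean log2 level of the stellate cell markers, 3-month control 2 was higher (7.74, this array at 7.71). The part of these cells in the result was not tested. Without background correction, and with the authors' processed values, 0 genes reached 2-fold. Fn1 (7.07) and Sparc (7.89) were within the range of the controls.

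**Figure D4:**
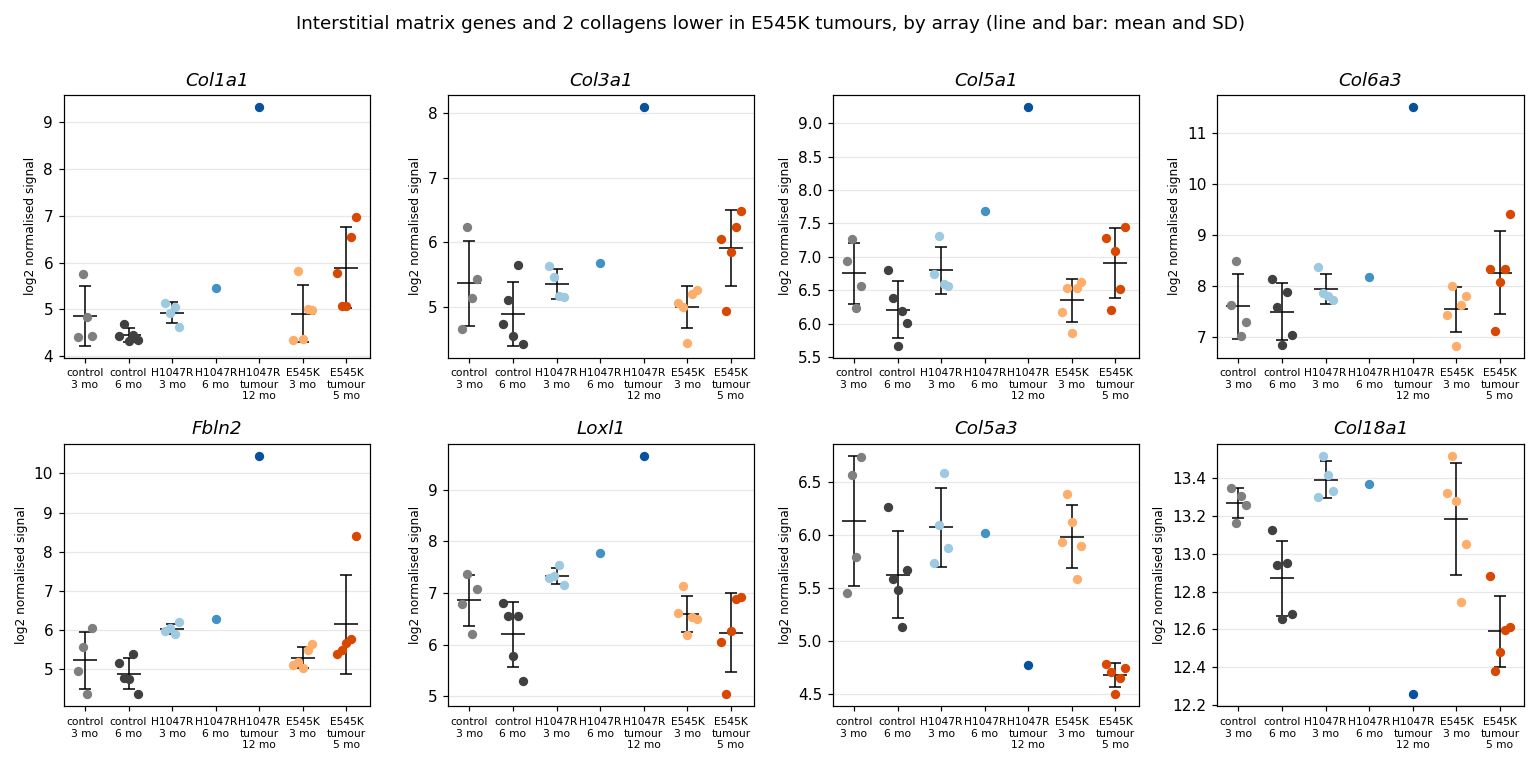
Log2 normalized signal of Col1a1, Col3a1, Col5a1, Col6a3, Fbln2, Loxl1, Col5a3 and Col18a1 per array (points) and group, with the mean and SD of groups of several arrays. The first 6 are highest in the 12-month H1047R tumour, while Col5a3 and Col18a1 are lowest or near lowest in both tumour groups.

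With the 6-month H1047R liver and the 12-month H1047R tumour as a group of 2, as in the study's design, limma called 0 of 61 probes against the 6-month controls (0.0246% of all detected probes, 0.0197% higher and 0.00491% lower), with 21 at an unadjusted p under 0.05 (7.48% of all were). The smallest p belonged to Col5a1 (2.26, 95% interval 1.21 to 3.30, adjusted p = 0.401), followed by Mmp13 (3.09) and Loxl1 (2.51), each above every control in both arrays. Without the 6-month liver the lone tumour array would be assumed to vary like the controls, so no count is given for that fit. In a fit of all 25 arrays 26 of the 61 probes were called. The share of all detected probes called in that fit is not given here, and the shares above belong to the fit of the compared groups.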

How the data were processed

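Per the labels' protocols, total RNA was extracted with Trizol, cleaned with DNase treatment and copied into biotin-labelled cRNA for Illumina arrays; the sources used here do not give the array type or chip. The deposited raw signals are linear intensities, not normalized per the file headers, and each has a deposited detection p-value. Processed intensities by the authors look quantile-normalized, and the authors' deposited tables hold log2 differences with p-values in limma's format. Here the intensities were background-corrected and quantile-normalized with neqc of limma 3.58.1 (R 4.3.3, offset 16, background from the detection p-values), and 20349 probes were kept (detection p under 0.05 on 4 or more of 25 arrays). Each comparison was fitted with limma (lmFit, eBayes) on its own samples, grouped by the labels, with Benjamini-Hochberg adjustment over all these probes; called means an adjusted p under 0.05. Symbols came from the authors' deposited annotation, with 658 brought up to date through RefSeq. The brightest detected probe stands for a gene. A gene undetected on every array of a group gets a lower bound, from the lowest detected signals of those arrays. Tables were loaded through data.table (version 1.17.8) and plots made in matplotlib 3.10.9.

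Genes named are the 10 highest and 10 lowest called without overlap in tumours against 3-month controls, up to 5 called (or the 3 of smallest p) elsewhere, the 5 brightest in controls and up to 4 called of each list; other genes are named to describe their families and were chosen after their values were seen. The members and lists were chosen with earlier results of these data known. Promoters are RefSeq windows. Samples that share a replicate number share only the number: over the 7 comparisons their deviations from the group means correlated between -0.32 and 0.54, and each comparison held a pair below 0. The fits were tested on simulated data. Alternatives were no background correction, the authors' values, other filters, 1 probe per gene, all arrays in a single fit, trend and robust variances, a replicate block and each array left out.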

Additional observations from a re-analysis of the deposited data

Results flagged for a closer look

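Of 105 groups of values tested, 4 held an array whose gap to its nearest neighbour was wide against the range of its group (Dixon's criterion at 95%), where chance marks about 1 in 20 groups. Sparc was at 6.90 in 6-month control 1, below the other 6-month controls. Mmp14 was at 10.3 in the same array, above the other 6-month controls and within the tumours. Mmp12 was at 5.18 in 6-month control 4, the only control array to detect it. Fbln2 was at 8.41 in E545K tumour 5, and without that tumour its differences from the 3-month and 6-month controls were 0.35 and 0.69, neither of them called.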

How the results depend on the processing

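With each array left out in turn, the matrix probes called were 17 to 28 against the 3-month controls, 14 to 20 against the 6-month controls and 18 to 32 against E545K liver of 3 months, and 0 to 0 in both preneoplasia comparisons, between the mutants and between the control ages. For the late H1047R samples, leaving out either H1047R array leaves a single array in that group, so no range is given. A fit of all 25 arrays called 28 probes for the tumours against the 6-month controls, where the fit of the compared groups called 17, and 26 for the late H1047R samples, where it called 0; it has more residual degrees of freedom. With the replicate number as a block, 17, 19 and 23 probes were called in the 3 tumour comparisons and 0 in the comparisons of 3-month livers and of control ages; Col7a1 lost its call against the 3-month controls under the block (-0.49, adjusted p = 0.0513). For the late H1047R samples no block was possible. The shares of all detected probes called in these alternative fits are not given here, so their counts cannot be set against such a share. The other probe turned the sign for Mmp13 (-0.17, -0.19 and -0.19 in the 3 tumour comparisons) and for Col18a1 against E545K liver of 3 months (0.021); the cause was not tested. For the single arrays, chosen after seeing the data, no background correction gave 22 and 19 genes for the 12-month tumour (25 and 23 with it) and 0 for the 6-month H1047R liver (7 with it), and so did the authors' processed values; leaving out single arrays gave 25 to 26, 23 to 25 and 6 to 8. The number of arrays limits precision, and dim genes near the detection limit have compressed or inflated differences depending on background correction.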
